A study of Vaccinium virgatum with 9 samples.

Results

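In rabbiteye blueberry fruit, 101 of the 38665 loci in the count table were graded in abundance: highest after potassium sulfate given at flowering, intermediate after potassium sulfate given at the young fruit stage, and lowest in fruit of watered plants. The members were chosen by their measured values. A locus was taken when its mean abundance after flowering potassium was at least 5 CPM (its counts scaled to a common library size, with TMM factors to adjust for library composition), when young fruit potassium gave at least 1.5 times the water mean, and when flowering potassium gave more than 1.5 times the young fruit mean. All differences between the groups were therefore built into the choice. They are given as descriptions, and no test of them stands as evidence.

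RNA was sequenced from fruit of Vaccinium virgatum (the cross Menditoo × Tifblue), a polyploid blueberry, from 7-year-old potted plants with 1 plant in each pot. The 3 groups were KH-10, given 10 g of potassium fertilizer per plant at flowering; YG-10, given the same 10 g per plant at the young fruit stage; and CK, given water. The fertilizer was potassium sulfate dissolved in water, so potassium and sulfate were always given together and cannot be told apart. Picking took place 90 days after flowering in every group, so the stage of treatment and the time between treatment and picking cannot be told apart either. Each group held 3 libraries, each from 12 to 18 pooled fruits, and whether these came from separate plants is not stated in the labels.

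Potassium is the main inorganic cation of plant cells. It sets osmotic pressure, activates many enzymes and is needed for loading sugar into the phloem, which feeds the fruit. Sulfate is taken up by the same roots and reduced to build cysteine. The title of the series names anthocyanin production, the pigments made from phenylalanine by way of flavonoids that colour ripening blueberry skin, as its subject. The deposited table does not pair its identifiers with gene names, so no member can be given a function here, and neither fruit tissue markers nor pathway lists could be matched. Identifiers that begin with Vadar are called Vadar genes here, and the 10365 rows with the other prefix of the table are called non-Vadar loci. In whole fruit, more cells of a type and more RNA per cell cannot be told apart.

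Library totals ran from 15655016 to 18424967 counts. The TMM factors were 0.961 to 0.981 in the potassium libraries and 1.05 to 1.07 in the water libraries. Potassium libraries were alike in this respect, and water libraries stood apart from them, so a comparison with water depends more on scaling than a comparison of the timings. The median log2 fold change over all genes was -0.02 with TMM factors for both KH-10 over CK and YG-10 over CK, and -0.13 and -0.14 when only library size was used. No replicate pair looked like a library deposited again: chi-square per degree of freedom within groups lay between 2.68 and 6.38.

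All 101 members passed the count filter that kept 25728 genes for testing. Their KH-10 means spanned 5.10 to 6737 CPM, with a median of 12.3 CPM, against medians of 6.02 CPM in YG-10 and 2.36 CPM in CK. Most members were scarce. Only 10 of the 101 reached 100 CPM in KH-10, and 41 stayed under 10 CPM there. The median KH-10 mean of all 14325 tested genes with at least 5 CPM in KH-10 was 26.0 CPM.

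**Figure D1:**
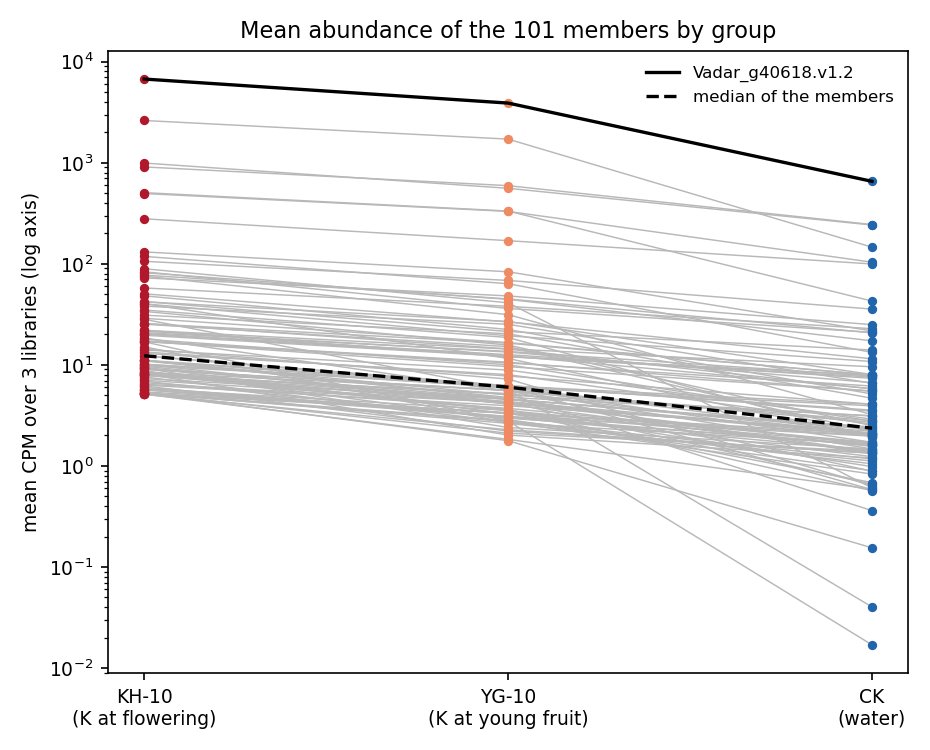
Mean abundance of each of the 101 members (grey lines, points for group means over 3 libraries) in KH-10, YG-10 and CK, on a log axis of CPM. The solid black line is the most abundant member, at 6737, 3896 and 655 CPM, and the dashed line joins the medians of 12.3, 6.02 and 2.36 CPM; every line falls towards CK because the rule chose it so.

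How KH-10 stood to YG-10 was counted among genes that met the other limits of the rule. Those limits leave out genes raised at flowering alone but keep genes raised at young fruit alone, so the shares lean towards YG-10. At least 5 CPM in KH-10 together with at least 1.5 times the water mean in YG-10 was found in 2207 genes. Of these, 1571 (71.2%) were as abundant in YG-10 as in KH-10 or more so, 535 (24.2%) were higher in KH-10 by up to 1.5 times, and 101 (4.58%) were the members. The mirror pattern, with KH-10 at least 1.5 times CK, YG-10 more than 1.5 times KH-10 and at least 5 CPM in YG-10, held 223 genes. Its genes had median means of 14.6 CPM in KH-10, 35.0 CPM in YG-10 and 5.56 CPM in CK.

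The most abundant member was Vadar_g40618.v1.2. It had 6835, 6935 and 6440 CPM in the KH-10 libraries, 3633, 3980 and 4075 CPM in the YG-10 libraries, and 637, 684 and 643 CPM in the CK libraries. The ranges of the 3 groups lay far apart, and within each group the libraries were close together. KH-10 over CK gave a log2 fold change of 3.35 ± 0.05 (SE, edgeR), and KH-10 over YG-10 gave 0.79 ± 0.04. Ranked by counts among all rows of its library, this gene was placed 2 or 3 in KH-10, 8 in each YG-10 library, and between 122 and 134 in CK. It alone took 0.655 ± 0.020% of all counts in KH-10, 0.378 ± 0.020% in YG-10 and 0.069 ± 0.0032% in CK (SD, n = 3 each).

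The second most abundant member, Vadar_g40907.v1.2, had 2559, 2641 and 2660 CPM in KH-10, 1765, 1661 and 1716 CPM in YG-10, and 150, 137 and 152 CPM in CK. Most of its difference lay between water and either potassium group: YG-10 was 11.7 times CK, and KH-10 was 1.53 times YG-10, just above the limit of the rule. On the log2 scale the step from CK to YG-10 made up 85.3% of the whole, the largest such part among the 101 members. The plan was to name the member with the highest ratio to water and at least 1 CPM in CK, which is described below without its identifier. This gene was named in its place after its values were seen, as the second most abundant member.

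The members ranked 3 and 4 by KH-10 mean had similar levels but came from different kinds of identifier. Member 3, a Vadar gene, averaged 994 ± 16.6 CPM in KH-10, 559 ± 9.72 CPM in YG-10 and 242 ± 11.2 CPM in CK (SD, n = 3 each). Member 4, a non-Vadar locus, averaged 909 ± 33.7, 594 ± 6.42 and 245 ± 4.91 CPM in KH-10, YG-10 and CK. They stood near each other in all 3 groups, though member 4 was slightly higher than member 3 in YG-10 and lower in KH-10.

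Ranks 5 to 8 were all Vadar genes. Members 5 and 6 were almost level in KH-10, at 506 ± 7.84 and 496 ± 28.0 CPM, and in YG-10, at 333 ± 17.4 and 330 ± 22.2 CPM. In CK they parted, at 42.8 ± 5.03 and 104 ± 10.4 CPM, so member 5 was 11.8 times and member 6 was 4.78 times higher in KH-10 than in CK. Member 7 averaged 279 ± 3.15 CPM in KH-10, 169 ± 10.6 CPM in YG-10 and 99.7 ± 5.23 CPM in CK, nearly even steps of 1.65 and 1.70 times. Member 8 averaged 131 ± 4.42, 83.4 ± 1.67 and 21.7 ± 1.51 CPM in KH-10, YG-10 and CK. In none of these 8 members did a library of one group enter the range of another, an order found in 3.85% of all tested genes. Only members with separate ranges were to be described, but these are also the 8 most abundant of all members.

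**Figure D2:**
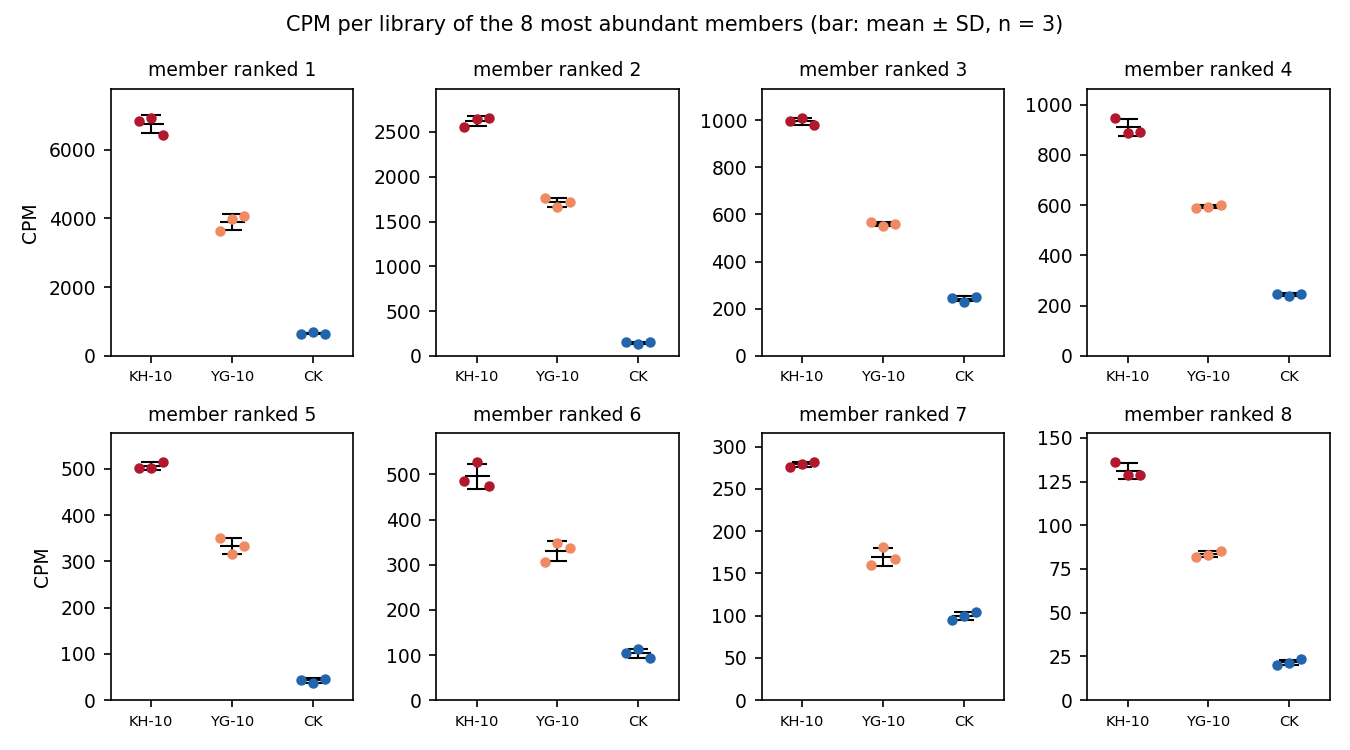
CPM in each library (points) of the 8 most abundant members, with the mean and SD of 3 libraries per group, on linear axes starting at 0. For the member ranked 1 the KH-10 libraries lie between 6440 and 6935 CPM, the YG-10 libraries between 3633 and 4075 CPM and the CK libraries between 637 and 684 CPM; the groups stay apart in all 8 panels.

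Summed over all members, the share of a library's counts was 1.44, 1.44 and 1.41% in KH-10, 0.828, 0.855 and 0.862% in YG-10, and 0.209, 0.212 and 0.209% in CK. The spread between replicates was small beside the distance between groups, with means of 1.43 ± 0.016%, 0.848 ± 0.018% and 0.210 ± 0.0015% (SD, n = 3 each) in KH-10, YG-10 and CK. The 2 most abundant members carried most of this sum in KH-10 and YG-10, and less than the others did in CK. Without the 2 most abundant members, the other 99 held 0.519 ± 0.0022% of counts in KH-10, 0.304 ± 0.0028% in YG-10 and 0.125 ± 0.0011% in CK. The 223 genes of the mirror pattern held 1.55 ± 0.0077%, 3.05 ± 0.057% and 0.599 ± 0.0016% in KH-10, YG-10 and CK.

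**Figure D3:**
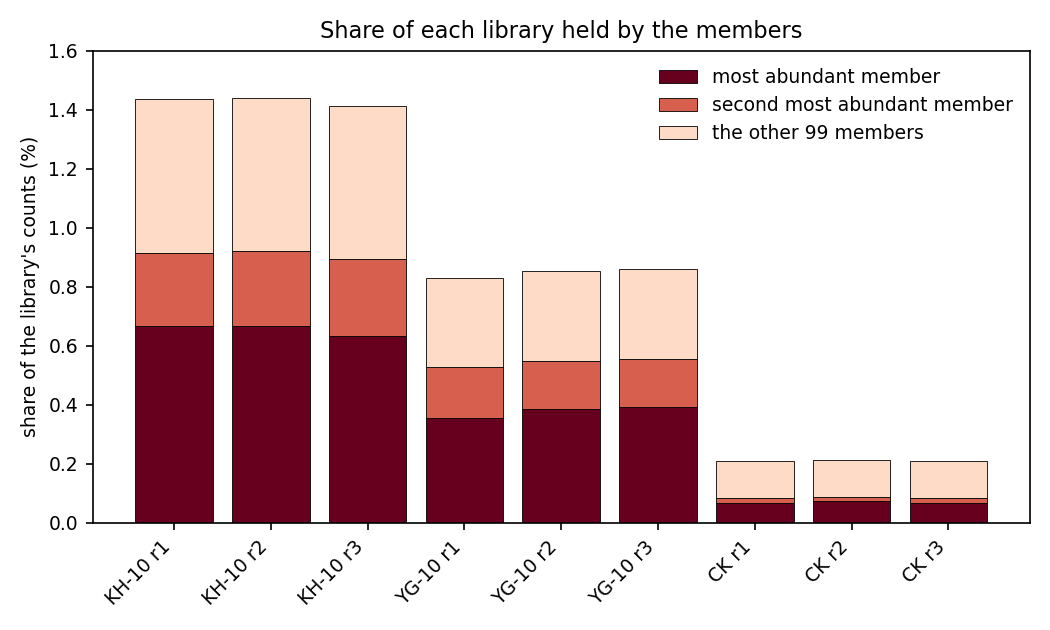
Share of each library's counts, in percent, held by the most abundant member, the second and the other 99, for the 3 libraries (r1 to r3) of KH-10, YG-10 and CK. The stacked bars reach 1.41 to 1.44% in KH-10, 0.828 to 0.862% in YG-10 and 0.209 to 0.212% in CK.

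Members differed widely in the size of their response. KH-10 over CK, as a ratio of mean CPM, ran from 2.49 to 998 (the highest resting on 1 count in CK), with a median of 4.39, and was at least 4 in 55 members, at least 10 in 18 and under 3 in 15. YG-10 over CK had a median of 2.26, and 22 members reached 4. KH-10 over YG-10 had a median of 1.79; 31 members reached 2 and 8 reached 3. In 77 of 101 members the step from CK to YG-10 was the larger of the 2 steps, and it made up a median of 58.8% of the whole on the log2 scale.

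Among members with at least 1 CPM in CK, the highest ratio to water belonged to a non-Vadar locus. It had 75.3, 82.2 and 69.1 CPM in KH-10, 29.8, 35.0 and 29.5 CPM in YG-10, and 3.74, 3.91 and 2.00 CPM in CK, which makes KH-10 23.5 times CK. The next was a Vadar gene at 44.4, 37.7 and 38.9 CPM in KH-10, 12.0, 12.2 and 10.6 CPM in YG-10, and 2.17, 2.03 and 1.63 CPM in CK. It was 20.7 times higher in KH-10 than in CK and also had the second highest ratio of KH-10 to YG-10, 3.49, among those of at least 1 CPM in CK with separate group ranges. Places 3 and 5 by ratio to water were Vadar genes, 18.0 and 13.5 times higher in KH-10 than in CK, and places 4 and 6 were members 2 and 5 by abundance, described already.

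In 24 of the 101 members the step from YG-10 to KH-10 was the larger one. A non-Vadar locus had 8.24, 8.18 and 8.13 CPM in KH-10, 2.00, 2.64 and 1.42 CPM in YG-10, and 0.84, 1.42 and 1.33 CPM in CK. Its KH-10 mean was 4.05 times the YG-10 mean, the highest ratio among members with at least 1 CPM in CK and separate group ranges, while YG-10 was 1.68 times CK. Its ranges were separate by a very narrow margin, since YG-10 replicate 3 at 1.4238 CPM was barely above CK replicate 2 at 1.4235 CPM. A Vadar gene with a ratio of KH-10 to YG-10 of 5.70 was left out of this order because its YG-10 and CK ranges overlapped. It had 15.02, 15.32 and 15.04 CPM in KH-10, 2.74, 2.06 and 3.16 CPM in YG-10, and 1.51, 1.32 and 2.12 CPM in CK. Another Vadar gene, with a ratio of 3.87, was left out for the same reason. Place 3 in that order, a Vadar gene, had 17.3, 20.3 and 17.8 CPM in KH-10, 4.18, 5.73 and 6.56 CPM in YG-10, and 2.77, 3.20 and 2.12 CPM in CK. It was 2.03 times higher in YG-10 than in CK, and 3.36 times higher in KH-10 than in YG-10.

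Other members had even steps. The most even of them averaged 8.08 ± 1.17 CPM in KH-10, 3.53 ± 0.95 CPM in YG-10 and 1.56 ± 0.21 CPM in CK (SD, n = 3 each), with steps of 2.29 and 2.26 times. The next averaged 8.11 ± 0.87, 4.15 ± 0.36 and 2.09 ± 0.78 CPM in KH-10, YG-10 and CK. The next after it averaged 5.41 ± 0.68, 3.37 ± 0.53 and 2.06 ± 0.53 CPM, and its steps were 1.61 and 1.63 times. All 3 were scarce Vadar genes.

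**Figure D4:**
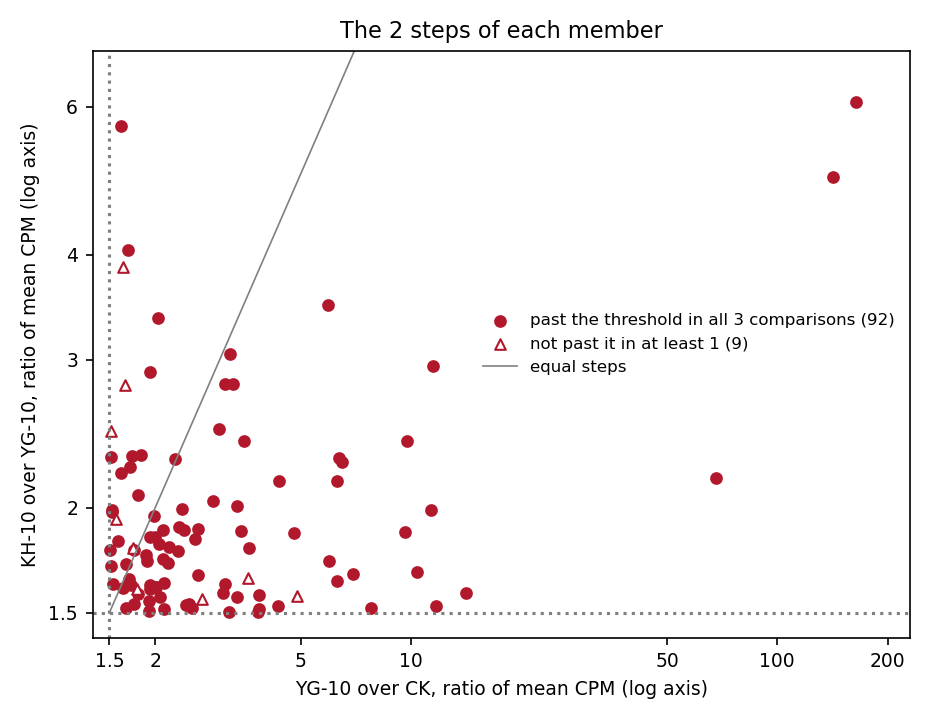
Each member's ratio of YG-10 to CK means (horizontal, log axis) and of KH-10 to YG-10 means (vertical, log axis); dotted lines mark the limit of 1.5, the grey line equal steps, filled circles the 92 members past the threshold in all 3 comparisons and open triangles the other 9. Most points lie below the line of equal steps, and 2 points stand apart near 142 and 164 times on the horizontal axis. Of all tested genes, at most 9.24% can be past the threshold in all 3 comparisons, the share higher in KH-10 over YG-10.

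A pair of Vadar genes was almost silent in water. The first had 1 count over the 3 CK libraries and 15.1, 17.6 and 18.0 CPM in KH-10, with 2.93, 2.25 and 3.16 CPM in YG-10. The second had 2 counts over CK, 27.9, 25.1 and 31.7 CPM in KH-10, and 4.74, 6.56 and 5.82 CPM in YG-10. Both were thus much higher in KH-10 than in YG-10, by 6.08 and 4.95 times, and already present in every YG-10 library. As a ratio of summed counts, YG-10 over CK was 147 for the first (95% interval 25.9 to 5851, exact binomial limits, Clopper-Pearson, for the counts of both groups) and 150 for the second (41.2 to 1248), and KH-10 over CK was 890 (159 to 35215) and 745 (206 to 6160). These intervals cover counting error only, and no member had 0 counts in all CK libraries.

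The numbers in these 2 identifiers are 2 apart. With a gap of up to 3 between numbers of the same prefix, 4 such pairs were found among the members. A pair of Vadar genes with consecutive numbers averaged 5.14 and 12.2 CPM in KH-10, 1.83 and 6.02 CPM in YG-10, and 0.59 and 2.09 CPM in CK. A pair of non-Vadar loci with consecutive numbers averaged 5.21 and 6.87 CPM in KH-10, 2.11 and 2.97 CPM in YG-10, and 1.39 and 1.63 CPM in CK. In the last pair, 3 numbers apart, the loci averaged 7.89 and 25.3 CPM in KH-10 but were nearly level in CK, at 2.06 and 2.18 CPM. Whether numbers follow position in the genome, or whether reads were divided between near-identical copies within a pair, is stated in no source used here.

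Non-Vadar identifiers made up 30 of the 101 members (29.7%), against 28 of the 223 genes of the mirror pattern (12.6%). Their share was 12.0% in the 14325 tested genes with at least 5 CPM in KH-10. It was 22.3% in all tested genes and 26.8% in all rows. The rule did not use the identifier, but it used abundance, and no test of these shares was made. Within the members the 2 kinds had similar median profiles. Median means of the 71 Vadar genes were 14.4, 5.97 and 2.36 CPM in KH-10, YG-10 and CK, and those of the 30 non-Vadar loci were 11.0, 6.12 and 2.54 CPM. Median KH-10 over YG-10 was 1.83 in Vadar genes and 1.70 in non-Vadar loci.

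The spread between replicates was next set beside these differences, with edgeR's quasi-likelihood test over all 25728 genes and a Benjamini-Hochberg adjusted p under 0.05 as the threshold. All 101 members were higher in KH-10 than in CK, where 24.3% of all genes were. In YG-10 over CK 96 members were higher, where 25.6% of all genes were. In KH-10 over YG-10 95 members were higher, where 9.24% of all genes were. Since the rule used these comparisons, the counts say only how many members stand clear of the replicate spread, and 92 did so in all 3. How many of all genes did so in all 3 was not counted, but it cannot exceed the 9.24% higher in KH-10 over YG-10. Median log2 fold changes of the members were 2.13, 1.15 and 0.84 in the 3 comparisons, against -0.02, -0.02 and 0.00 over all genes tested. KH-10 over CK and YG-10 over CK share the water libraries. Over all genes, 6263 were higher and 6272 lower in KH-10 over CK, which became 4846 and 7719 with scaling by library size alone. In YG-10 over CK, 6582 higher and 6624 lower became 5132 and 8190.

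Separation by library was close to complete. In 91 of 101 members the lowest KH-10 library was above the highest YG-10 library and the lowest YG-10 library above the highest CK library, an order found in 3.85% of all genes tested. KH-10 and YG-10 did not overlap in 97 members (17.0% of all genes had every KH-10 library above every YG-10 library), and YG-10 and CK did not overlap in 92 (28.7% of all genes). Members with at least 30 CPM in KH-10 numbered 27, and all of them were past the threshold in all 3 comparisons and in separate ranges. Of the 41 members under 10 CPM, 33 were past it in all 3 and 36 in separate ranges. The same counts were not taken over all genes of each abundance, so whether this difference is particular to the members was not tested.

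A few members rested on single libraries. A Vadar gene had 6.59, 1.49 and 9.85 CPM in KH-10, 4.18, 1.54 and 3.53 CPM in YG-10, and 2.05, 2.29 and 1.57 CPM in CK. Its replicate 2 was low in both potassium groups and lay below CK replicate 2, and neither step passed the threshold. A non-Vadar locus had 3.42, 17.6 and 12.3 CPM in KH-10, 3.74, 10.9 and 4.02 CPM in YG-10, and 4.28, 2.90 and 3.51 CPM in CK. Its replicate 1 lay within the CK range in both potassium groups, and its YG-10 mean depended on replicate 2. These were the 2 members in which a KH-10 library overlapped the CK range.

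Replicates of a group spread more widely in the members, by the median, than over the wider set of genes. The median coefficient of variation was 8.62% in KH-10, 11.9% in YG-10 and 19.6% in CK, against 6.11, 6.74 and 7.18% over all tested genes with at least 5 CPM in KH-10. Members were also scarcer: the median count of a member in a CK library was 43, and in a KH-10 library 200. How much of the spread follows from low counts was not tested. The 3 YG-10 libraries were not quite alike: replicate 1 was the lowest of its group in 47 members and replicate 3 the highest in 46, with median log2 deviations of -0.05 and 0.04.

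To read the pattern in libraries that had not chosen the genes, the rule was applied to the 6 libraries of 2 replicate numbers and the genes found were read in the 3 libraries of the remaining number. With replicates 1 left out, 94 genes were chosen, and 89 of them (94.7%) had KH-10 above YG-10 above CK in the left-out libraries, where 23.9% of all genes with at least 5 CPM had that order. With replicates 2 left out it was 91 of 96 (94.8%, against 3582 of 14307 genes), and with replicates 3 left out 96 of 99 (97.0%, against 21.3%). There is 1 left-out library per group, so these are descriptions with no test, and the 3 readings share libraries with each other.

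The order carried over more often than the sizes. Both ratios passed 1.5 in the left-out libraries for 59 of 94, 53 of 96 and 55 of 99 genes (62.8, 55.2 and 55.6%), while 0.769, 0.643 and 0.643% of all genes with at least 5 CPM did. Median KH-10 over YG-10 in the left-out libraries was 1.88, 1.74 and 1.68, beside 1.77, 1.87 and 1.76 in the libraries that chose the genes. Median YG-10 over CK was 2.17, 2.27 and 2.58 left out, beside 2.24, 2.17 and 2.42. The lowest KH-10 over YG-10 was 0.029, in a non-Vadar locus that is not among the 101.

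**Figure D5:**
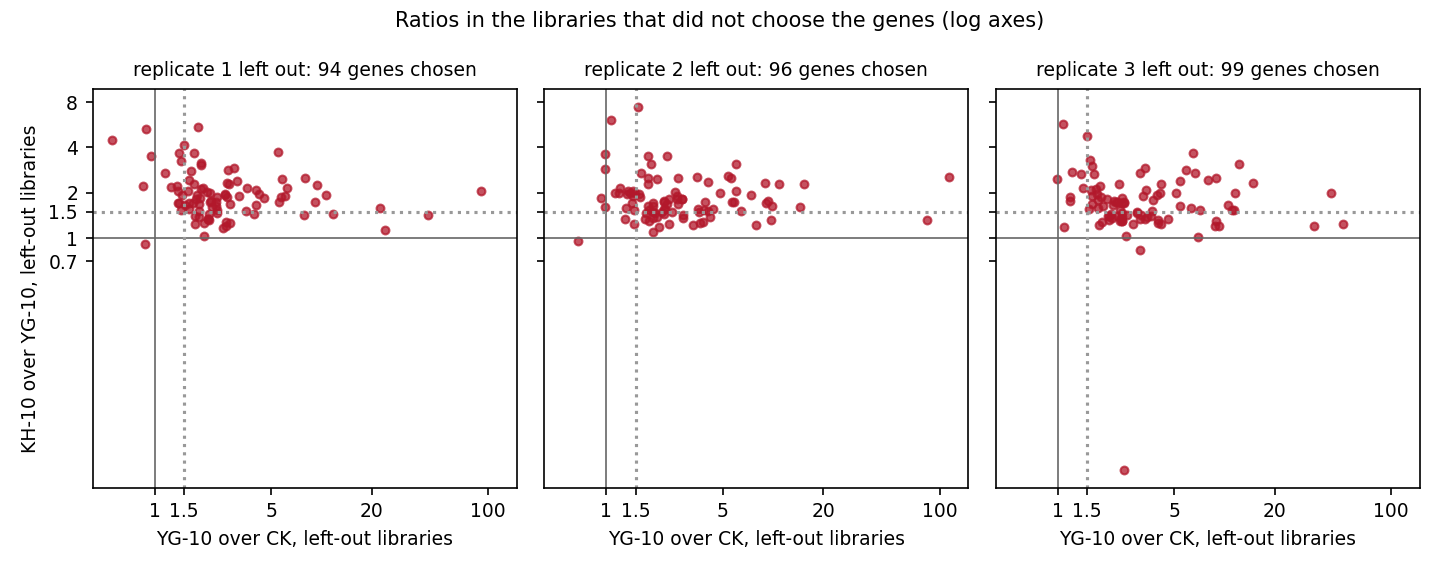
Ratios of YG-10 to CK (horizontal, log axis) and KH-10 to YG-10 (vertical, log axis) in the libraries of the left-out replicate number, for the 94, 96 and 99 genes chosen from the other libraries; solid lines mark 1 and dotted lines 1.5. Most points lie up and right of the solid lines, and a single gene lies at 0.029 on the vertical axis. Not drawn are 6 points whose left-out CK library had 0 counts. Also not drawn are points with 0 counts only in the CK libraries that chose the genes. Those had left-out YG-10 over CK of 39.3 with replicates 1 left out and 44.3 with replicates 2 left out.

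The limits of the rule cut through a continuous range of values. KH-10 over YG-10 was 1.502, 1.503 and 1.508 in the 3 members just inside the limit and 1.498, 1.497 and 1.493 in the 3 genes just outside it; 22 members lay under 1.6. YG-10 over CK was 1.505, 1.515 and 1.516 just inside and 1.438, 1.434 and 1.410 just outside. KH-10 means were 5.10, 5.14 and 5.18 CPM just inside the abundance limit and 4.98, 4.98 and 4.84 CPM just outside. With each of the 9 libraries left out in turn, 55 members were found every time, and 46 dropped out at least once. The losses ran from 4 members without KH-10 replicate 1 to 15 without YG-10 replicate 3. All 55 were in separate ranges, an order found in 3.85% of all tested genes. Of the 55, 54 were past the threshold in all 3 comparisons, where at most 9.24% of all tested genes can be. Passing the rule with any library removed favours both, so these counts are descriptions only.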

How the data were processed

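The values deposited by the authors are whole-number counts of each gene in 9 libraries, not normalized as far as their totals show. Per the submitters' processing notes, HISAT2 2.1.0 and StringTie 1.3.4d were used; their roles are not named, and the counting tool, genome build, annotation and strand setting were not given in the sources used here, so reads of near-identical copies may have been split or merged. CPM used TMM factors over all rows. Tests used edgeR 4.0.16 in R 4.3.3 (filterByExpr, minimum count 10 and minimum total 15, then glmQLFit and glmQLFTest with 1 term per group over all 9 libraries) and were tried on simulated data. A standard error is the log2 fold change over the square root of F. DESeq2 1.42.0, limma 3.58.1 with voom weights, other scalings, filters and rule limits, and left-out libraries were alternatives. P-values reflect spread between replicates that may be technical only. The members, lists and descriptions were chosen with earlier results of these data known. Members described were, among those with separate group ranges, the 8 most abundant in KH-10, the 6 highest in KH-10 over CK and the 3 highest in KH-10 over YG-10 with at least 1 CPM in CK, the 3 most even, and those near 0 in CK or resting on 1 library. Identifiers could not be matched to names, so gene lists went unused.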

Additional observations from a re-analysis of the deposited data

How the results depend on the processing

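The number of members follows its limits. With a looser fold in the rule 260 genes were found, 222 of them in separate ranges, and with a fold of 2 there were 19, all 19 in separate ranges. A minimum of 1 CPM in KH-10 gave 248 genes (173 in separate ranges) and one of 20 CPM gave 38 (37). Other scalings gave 89 to 111 genes and group medians in place of means gave 91. Without the member with the most counts the members held 0.774% of counts in KH-10, 0.471% in YG-10 and 0.140% in CK, and with only the 92 members past the threshold in all 3 comparisons the share in CK was 0.208%, a move beyond its small SD. Leaving out each library gave 91 to 109 members, 83 to 102 in separate ranges. Of the 101, 100 to 101 were then higher in KH-10 than CK, 91 to 98 in YG-10 than CK and 84 to 98 in KH-10 than YG-10. Over all genes it was 5740 to 6453, 6040 to 6645 and 1786 to 2572, beside 6263, 6582 and 2377 with all libraries. Leaving aside the filter at a mean of 50 counts, tools, filters and thresholds gave 100 to 101, 87 to 100 and 81 to 99 of the 101. DESeq2 gave 100, 93 and 88, and over all genes 6054, 6394 and 2029. The 87 and 81 came at an adjusted p under 0.01, where all genes were not counted. The filter at a mean of 50 counts left 93 members to test. Of these 93, 89 and 89 were higher, and 4935, 5187 and 2165 of all genes. Same-numbered replicates did not deviate together (r from -0.04 to 0.05 across genes). With 3 libraries per group this cannot settle whether the numbers pair the libraries. With the replicate number as a block, 101, 95 and 98 members were higher, and 6382, 6656 and 2576 of all genes. Low counts in CK, a median of 43 per member and library, limit the ratios to water.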
